A study of Mus musculus with 6 samples.

Results

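The alcohol and aldehyde dehydrogenases described here are 10 genes, *Adh1*, *Adh4*, *Adh5*, *Adh7*, *Aldh2*, *Aldh3a1*, *Aldh3a2*, *Aldh3b1*, *Aldh3b2* and *Aldh9a1*, chosen by name and read by every probe that carries their gene name, which gave 12 of the 55681 non-control probes on the arrays. Gene expression was read on 6 single-color Agilent arrays from epithelial organoids at passage 0, 3 grown from the squamous esophagus and 3 from the columnar stomach of mice numbered 1, 2 and 4 in the labels. Organoids are small epithelial structures grown from tissue stem cells in a gel, and the harvest was on day 8 for 5 of the cultures and on day 7 for that of mouse 4 stomach. According to the study's methods, stomach organoids came from corpus glands and grew in medium with WNT3A and R-spondin1 conditioned media and gastrin. Esophageal organoids grew without WNT3A and R-spondin1 and with forskolin, and both media held EGF, noggin, FGF-10, N-acetylcysteine, nicotinamide, a TGF-β receptor kinase inhibitor, a ROCK inhibitor, B27 and N2. The methods describe the wild-type mice of the study as female C57BL/6, while the array labels give no strain, sex or age and mark every sample as a control. By the same methods, esophageal tissue was digested with collagenase and TrypLE into cells, whereas stomach glands were released with DTT and EDTA and seeded as glands. Tissue, isolation and medium changed together. Effects of the medium, of the isolation and of the tissue of origin therefore cannot be told apart in any difference below.

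Alcohol dehydrogenases pass hydrogen from an alcohol such as ethanol or retinol to NAD+ and leave an aldehyde. Aldehyde dehydrogenases then oxidize the aldehyde to an acid, which removes a reactive molecule and, for retinaldehyde, makes retinoic acid. The upper digestive tract meets ethanol and dietary aldehydes directly, and its mucosa is known for the class IV enzyme ADH7 and for ALDH3A1, whereas ADH1 is best known from the liver. Within the mouse family, the genes *Adh7*, *Adh1*, *Adh6a*, *Adh6b*, *Adh4* and *Adh5* follow each other without another protein-coding gene between them on chromosome 3 in the RefSeq gene table (mouse assembly GRCm38.p6). *Aldh3a1* and *Aldh3a2* are neighbors on chromosome 11 in that table. *Aldh3b3* and *Aldh3b2* are neighbors on chromosome 19, where *Aldh3b1* lies near them.

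All values are the authors' log2 intensities, background corrected and quantile normalized, and a difference is esophagus minus stomach on that log2 scale with its standard error from limma over 3 arrays per tissue. A probe was called when its Benjamini-Hochberg adjusted p over all probes was under 0.05. By that rule 5 of the 12 probes and 4 of the 10 genes were called, 3 higher in the stomach organoids (*Adh1*, *Aldh2* and *Aldh3a2*) and 2 higher in the esophageal organoids (both probes of *Aldh3b2*). Of all 34298 gene names 14.9% were called by their brightest probe, and of all 55681 probes 12.2% were called, 6.22% higher in stomach and 5.94% higher in esophagus. The share called was 25.1% among the 25859 probes detected, that is well above background, on every array of a tissue. The arrays of the tissues did not overlap for the same 5 of 12 probes, against 28.6% of all probes measured on every array. The median difference over the 10 genes, by the brightest probe of each, was -0.19, against 0.03 over all 34298 gene names. Cells of a type being fewer and each cell holding less of an RNA cannot be told apart in such bulk samples.

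The labelled tissues were checked against marker genes. All 7 columnar markers (*Krt8*, *Krt18*, *Krt19*, *Krt7*, *Tff2*, *Muc6*, *Gkn3*) were higher in stomach. Of the 7 squamous markers, *Krt5*, *Krt14*, *Krt13*, *Krt4*, *Col17a1* and *Dsg3* were higher in esophagus, and the brightest *Trp63* probe was lower there (-1.22 ± 0.27, adjusted p = 0.0249, 0.0615 to 0.11 without array 1 or 2 of either tissue, and 0.0556 and 0.105 with an offset of 50 and with 75th percentile scaling) while the bounds of the other 3 *Trp63* probes were at least 299-fold, 92.0-fold and 49.6-fold in the direction of esophagus. Which *Trp63* transcript or sequence the brightest probe reads was not settled here. None of the 7 fibroblast, 4 smooth muscle, 4 endothelial, 5 immune or 4 hepatocyte and adipocyte markers on the arrays was called by limma on its brightest probe. By that probe 1, 0, 1, 0 and 0 of them were under an unadjusted p of 0.05. Among all these markers, *Lum*, *Pdgfra*, *Thy1*, *Des*, *Myh11*, *Cdh5*, *Ptprc*, *Adgre1*, *Alb*, *Adipoq* and *Plin1* were well above background on no array. In contrast, the brightest probes of 6 markers were well above background on all 6 arrays, with mean log2 intensities in esophagus and stomach of 13.17 and 11.54 for *Cd68*, 7.39 and 7.89 for *Cd3e*, 9.69 and 9.61 for *Tagln*, 8.89 and 8.64 for *Kdr*, 5.92 and 6.11 for *Pecam1*, and 8.53 and 8.61 for *Apoa2*. A second *Kdr* probe was well above background on no array, at 4.68 in both tissues. The second *Cd68* probe read higher on every esophagus array than on any stomach array (1.41 ± 0.55, unadjusted p = 0.034 and adjusted p = 0.163 by limma). The part of these markers in the results was not tested. Per array, 45.5% to 51.1% of non-control spots were detected above background, and 0 were saturated.

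**Figure D1:**
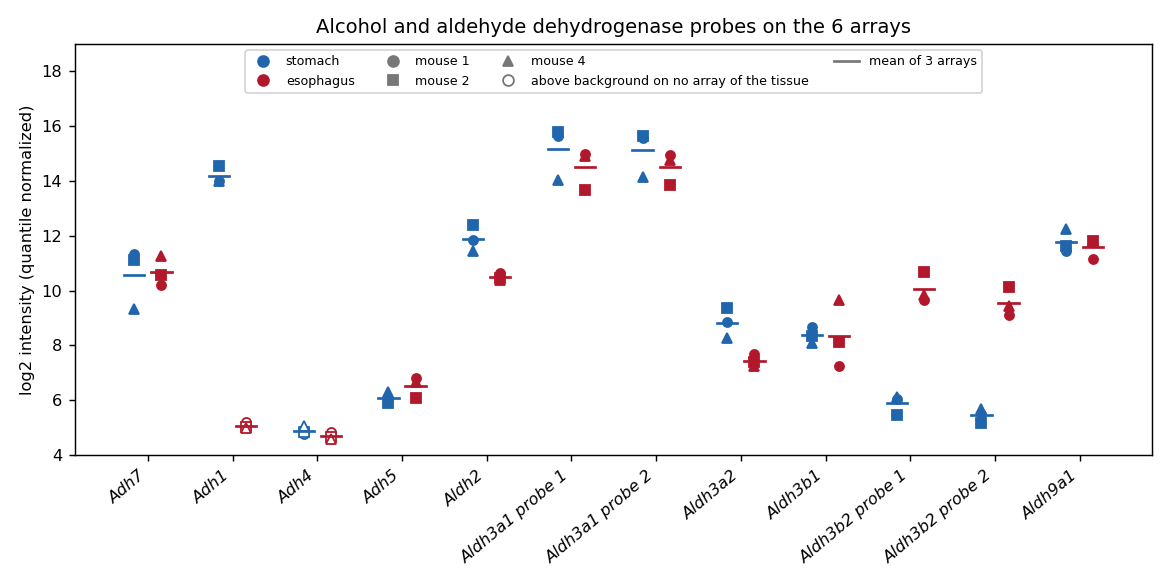
Log2 intensity (vertical axis) of the 12 probes of the 10 genes on each array, with stomach arrays in blue, esophagus arrays in red, a symbol for each mouse and a bar for the mean of 3 arrays. Stomach arrays lie between 13.99 and 14.54 for *Adh1*, where the esophagus arrays lie between 4.99 and 5.21, and open symbols mark probes above background on no array of that tissue.

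The probes are 60 bases long, and 30 bases of each are shown here for the sequences that stand behind the values of the genes with a tissue difference and of *Adh7* and *Aldh3a1*. For *Aldh3b2* and *Aldh3a1* the stretch shown belongs to both probes of the gene, which share a run of 42 and 53 bases and so are not independent readings.
Adh1: gttaattacccatgttttacctttcgagaa
Adh7: gagatgtagaaaatgaatttttcaagaaat
Aldh2: actcagtttaagaagatcctcggctacatc
Aldh3a2: gctgttgtttgtgtgcctggttgctgttgc
Aldh3b2: tgttactttcctgtagcttctattaaatga
Aldh3a1: cctcttgttctgctgtttgctgagcacaga
Between a probe of these 10 genes and a probe of another alcohol or aldehyde dehydrogenase gene, the longest identical run was 9 bases. Probes were compared only with probes, so whether one also reads the RNA of a related gene was not tested. Positions below are those of the array files on mouse build mm9, which name a transcript for each probe. Exon and UTR annotation of that build was not used here. The *Aldh2* probe spans 122022137 to 122022690 on chromosome 5, more than its own length, so as mapped in the files it joins separate exons.

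Among the alcohol dehydrogenases, *Adh1*, the class I enzyme that oxidizes ethanol and retinol, had the largest tissue difference of the 10 genes. Its probe (NM_007409, chr3:137952821-137952880, plus strand) read 14.01, 14.54 and 13.99 on the stomach arrays of mice 1, 2 and 4. On the esophagus arrays of the same mice it read 5.21, 5.02 and 4.99. All stomach arrays were far above all esophagus arrays, and the probe was well above background on none of the 3 esophagus arrays. The measured difference was -9.11 ± 0.19 (SE, adjusted p = 1.22e-07), which against the probe's own signal or the dimmest detected signal of each esophagus array, whichever was higher, means at least 538-fold higher in stomach. That bound depends on the background correction, and the difference was -8.03 with a background offset of 50, smaller than the bound, and -11.67 with 75th percentile scaling. Within the mice the difference was -8.80, -9.51 and -9.01. The 7 fibroblast markers, above background on all 3 arrays of neither tissue, had summed intensities of 203 to 236 on esophagus and of 226 to 247 on stomach arrays, and the 4 hepatocyte and adipocyte markers had 406 to 482 and 430 to 520. The smooth muscle markers, with *Tagln* among them, had 456 to 1443 and 514 to 1809. For the endothelial markers, with the brightest *Kdr* probe among them, the sums were 458 to 664 and 517 to 551. The immune markers, with *Cd68* among them, had 3859 to 28295 and 2364 to 5699. *Acta2*, a smooth muscle marker, read 6.69 on the esophagus array of mouse 2 and 4.74 to 4.97 on the others. The part of these cell types in the *Adh1* difference was not tested. Of the hepatocyte and adipocyte markers, *Alb*, *Adipoq* and *Plin1* were at background everywhere, and *Apoa2* was detected on all 6 arrays at 8.30 to 8.67 in esophagus and 8.47 to 8.73 in stomach.

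*Adh7*, the class IV enzyme of the upper digestive tract and a retinol dehydrogenase, sits next to *Adh1* on the chromosome and was well above background on all 6 arrays. The probe (NM_009626, chr3:137894495-137894554) read 11.33, 11.10 and 9.32 on the stomach arrays and 10.21, 10.59 and 11.27 on the esophagus arrays of mice 1, 2 and 4. The tissues overlapped, and the lowest value of all was that of the stomach organoids of mouse 4. The difference was 0.10 ± 0.53 (SE, 95% interval -1.12 to 1.33, adjusted p = 0.94), an interval that leaves room for more than a 2-fold difference either way. In mice 1 and 2 the probe was lower in esophagus, by differences of -1.13 and -0.52, and in mouse 4 it was higher, by 1.95. Without the stomach array of mouse 4 the difference was -0.53 (adjusted p = 0.38), and without the esophagus array of mouse 4 it was -0.19 (adjusted p = 0.899).

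*Adh5* encodes the class III enzyme, which clears formaldehyde bound to glutathione and is made in most tissues. It read 6.06, 5.89 and 6.30 in stomach and 6.83, 6.07 and 6.66 in esophagus (NM_007410, chr3:138118383-138118442). The esophagus value was the higher one in each of the 3 mice, but the tissues overlapped and the difference of 0.44 ± 0.23 did not pass (95% interval -0.09 to 0.97, adjusted p = 0.305). *Adh4*, the class II enzyme known from liver, was well above background on no array (NM_011996, chr3:138093716-138093775). Its readings of 4.59 to 5.07 over all 6 arrays therefore carry no order. *Adh6a* and *Adh6b*, which lie between *Adh1* and *Adh4*, were well above background on all 3 stomach arrays and on 1 of 3 esophagus arrays each. Their differences were -0.41 ± 0.49 (adjusted p = 0.697) and -0.34 ± 0.30 (adjusted p = 0.583). The esophagus array of mouse 2 read 6.60 for *Adh6a*, against 4.67 and 4.68 on the other two, and without it *Adh6a* was called higher in stomach (-1.05, adjusted p = 0.0136). Over all arrays 1 of the 6 cluster genes was called, near the 14.9% of all gene names.

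The sequences before the transcription start are shown for these chromosome 3 neighbors *Adh7* and *Adh1*, of which *Adh1* was called and *Adh7* was not, and for *Aldh3a2*. They come from the RefSeq promoter table (GRCm38.p6), which has entries for 7 of the 10 genes and not for *Aldh2*, *Aldh3a1* and *Aldh3b2*. Each run is the 250 bases before the start, and capitals mark every match to 5 motifs, searched on both strands. TGANTCA, where N is any base, is the motif known for AP-1. CACGTG is the palindromic form of the E-box. GGGCGG is known as the GC box. CCAAT is the box bound by the factor NF-Y. TATAAA is the common form of the TATA box.
Adh7 promoter, chr3:138217523-138217772, plus strand: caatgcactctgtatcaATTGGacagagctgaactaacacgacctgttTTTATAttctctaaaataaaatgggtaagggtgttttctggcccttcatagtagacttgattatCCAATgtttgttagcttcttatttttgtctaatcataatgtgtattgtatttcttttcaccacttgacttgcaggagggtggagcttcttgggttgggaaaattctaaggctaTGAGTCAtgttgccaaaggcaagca
Adh1 promoter, chr3:138277335-138277584, plus strand: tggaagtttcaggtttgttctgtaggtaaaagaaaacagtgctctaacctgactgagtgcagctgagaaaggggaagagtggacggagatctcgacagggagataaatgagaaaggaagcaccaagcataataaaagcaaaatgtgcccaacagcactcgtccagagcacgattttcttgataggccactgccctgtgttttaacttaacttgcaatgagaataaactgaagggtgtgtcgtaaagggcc
Aldh3a2 promoter, chr11:61267187-61267436, minus strand: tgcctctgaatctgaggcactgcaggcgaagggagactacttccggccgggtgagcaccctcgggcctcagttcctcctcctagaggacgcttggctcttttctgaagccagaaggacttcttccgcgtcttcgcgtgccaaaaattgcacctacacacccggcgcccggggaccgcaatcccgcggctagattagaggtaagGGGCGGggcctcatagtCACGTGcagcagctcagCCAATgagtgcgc
The *Adh7* window held the AP-1 motif beginning 25 bases before the start, the NF-Y box at 138 and 233 bases and the TATA box, on the opposite strand, at 202 bases. None of the 5 motifs was in the *Adh1* window. The *Aldh3a2* window held the GC box, the E-box and the NF-Y box, beginning 47, 30 and 13 bases before the start. Of all 32851 windows of this length in the table, 6.75% held the AP-1 motif, 6.02% the E-box, 32.7% the GC box, 33.8% the NF-Y box and 12.4% the TATA box. No matches of different motifs overlapped in the windows shown. A match is a match of letters and is given as a description only.

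Of the aldehyde dehydrogenases, *Aldh2* encodes the mitochondrial enzyme that removes acetaldehyde, the product of ethanol oxidation. The probe (NM_009656, minus strand) read 11.85, 12.39 and 11.46 in stomach and 10.64, 10.44 and 10.38 in esophagus for mice 1, 2 and 4. Every stomach array was above every esophagus array. The difference was -1.41 ± 0.24 (SE, adjusted p = 0.00729), or 2.66-fold higher in stomach, and was -1.21, -1.95 and -1.09 within the mice. It stayed called with each array left out, with a difference between -1.63 and -1.17.

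*Aldh3a2* encodes the fatty aldehyde dehydrogenase of the endoplasmic reticulum, which oxidizes long-chain aldehydes from membrane lipids. It read 8.85, 9.36 and 8.29 in stomach and 7.70, 7.41 and 7.24 in esophagus (NM_007437, chr11:61062365-61062424, minus strand). The tissues did not overlap, and the stomach array of mouse 4 was again the lowest of its tissue. The difference was -1.38 ± 0.28 (SE, adjusted p = 0.0151), 2.61-fold higher in stomach. The call was lost without the stomach array of mouse 1 (adjusted p = 0.0679) or without the esophagus array of mouse 2 (adjusted p = 0.0535), and with a background offset of 50 (difference -1.19, adjusted p = 0.0537), while over all alternatives the adjusted p ran from 0.00416 to 0.0679.

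Its neighbor *Aldh3a1* encodes the cytosolic enzyme for aromatic and lipid peroxidation aldehydes that is abundant in the cornea and stomach. Its first probe (NM_001331112, chr11:61031864-61031920, plus strand) read 15.63, 15.78 and 14.05 in stomach and 14.9999, 13.67 and 14.91 in esophagus. The overlapping second probe (chr11:61031857-61031916) read 15.58, 15.63 and 14.15 in stomach and 14.96, 13.85 and 14.75 in esophagus. Both probes were well above background on all 6 arrays, and the lowest array was that of mouse 4 in stomach and that of mouse 2 in esophagus. The differences of -0.63 ± 0.52 (95% interval -1.84 to 0.59, adjusted p = 0.554) and -0.60 ± 0.45 (95% interval -1.63 to 0.44, adjusted p = 0.501) did not pass. Without the stomach array of mouse 4 they were -1.18 (adjusted p = 0.117) and -1.08 (adjusted p = 0.0837).

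*Aldh3b2* encodes a lipid-associated enzyme of the ALDH3 branch that acts on medium- and long-chain aldehydes, and it was the only one of the 10 genes called higher in esophagus. Its first probe (NM_001177438, chr19:3981588-3981647, plus strand) read 9.64, 10.67 and 9.83 on the esophagus arrays of mice 1, 2 and 4 and 6.06, 5.47 and 6.13 on the stomach arrays. The second (chr19:3981606-3981665) read 9.13, 10.13 and 9.44 in esophagus and 5.51, 5.19 and 5.66 in stomach. The tissues were well apart on both probes, mouse 2 had the highest esophagus and the lowest stomach value, and the second probe was well above background on 2 of 3 stomach arrays. The differences were 4.16 ± 0.30 (adjusted p = 7.85e-05, 17.9-fold) and 4.11 ± 0.27 (adjusted p = 4.4e-05, 17.3-fold). The folds depend on the background correction, with differences of 3.44 and 3.35 at an offset of 50 and of 4.74 and 5.94 with 75th percentile scaling.

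*Aldh3b1*, near it on chromosome 19, also encodes an enzyme for lipid-derived aldehydes, and its difference did not pass. It read 8.69, 8.34 and 8.08 in stomach and 7.24, 8.11 and 9.65 in esophagus (NM_026316, chr19:3913493-3913552, minus strand). The esophagus arrays spread over 2.40 log2 units, the widest range of the 12 probes within a tissue, and enclosed all stomach values. The difference was -0.03 ± 0.54 (95% interval -1.28 to 1.22, adjusted p = 0.982), with -1.44, -0.22 and 1.57 in mice 1, 2 and 4. *Aldh3b3*, which lies between these genes, was not in the set of 10 and was higher in esophagus, with 8.11, 8.91 and 8.01 there and 5.89, 5.96 and 6.01 in stomach (2.38 ± 0.25, adjusted p = 0.00054, and 1.78 to 2.82 over the alternatives). A second *Aldh3b3* probe was well above background on no array.

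*Aldh9a1* encodes the enzyme for trimethylaminobutyraldehyde, a step of carnitine synthesis. It read 11.46, 11.65 and 12.25 in stomach and 11.16, 11.81 and 11.83 in esophagus (NM_019993, chr1:169298245-169298304, plus strand). The tissues overlapped, with mouse 4 in stomach above all esophagus arrays and mouse 1 in esophagus below all stomach arrays, and the difference of -0.19 ± 0.27 (95% interval -0.81 to 0.44, adjusted p = 0.759) did not pass.

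**Figure D2:**
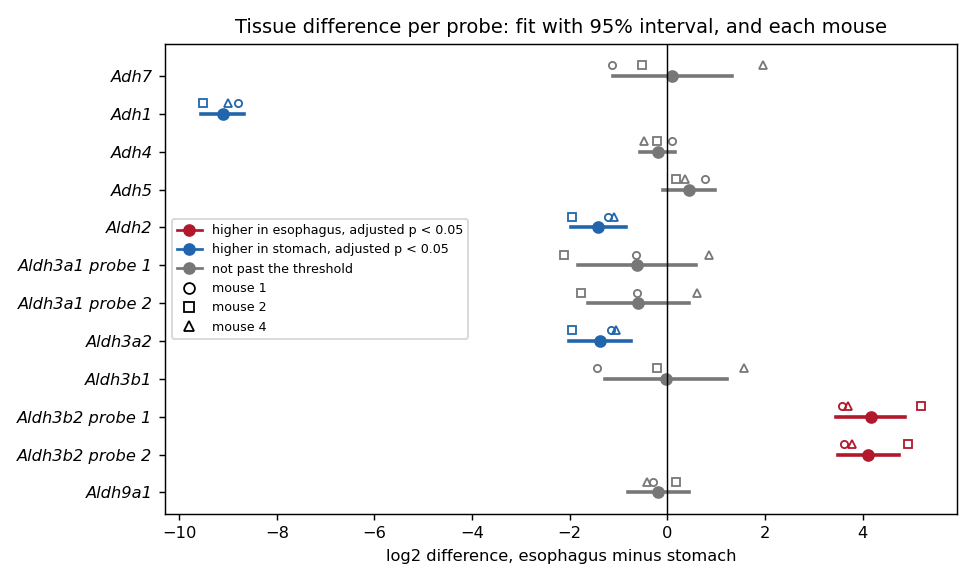
Log2 difference, esophagus minus stomach (horizontal axis), of each probe from the limma fit with its 95% interval, and above it the difference within mouse 1, 2 and 4 as open symbols. The called probes (*Adh1*, *Aldh2*, *Aldh3a2* and both of *Aldh3b2*) have the same direction in every mouse, whereas *Adh7*, *Aldh3a1* and *Aldh3b1* have mouse 4 on the opposite side of 0 from mice 1 and 2.

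The spread within a tissue differed between the genes. In the stomach, mouse 4 stood below the mean of mice 1 and 2 by a difference of -1.90 for *Adh7*, -1.66 and -1.45 for the *Aldh3a1* probes, -0.81 for *Aldh3a2* and -0.66 for *Aldh2*. For *Aldh9a1* it stood above by 0.70. Mice 1 and 2 were 0.23 apart for *Adh7* and 0.14 and 0.05 apart for *Aldh3a1*, but 0.51 apart for *Aldh3a2* and 0.54 for *Aldh2*, not far under the deviation of mouse 4. Over the 24450 probes well above background on all stomach arrays, mouse 4 was a median of 0.33 from the mean of the other two, and 7.6% were over 1 away. That array is also the one harvested on day 7, so mouse and harvest day cannot be told apart. The esophagus array of mouse 4 lay alone on its slide, and over the 5 arrays of the other slide the differences of the called probes were -9.06 for *Adh1*, -1.36 for *Aldh2*, -1.28 for *Aldh3a2* and 4.27 and 4.17 for *Aldh3b2*.

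Beyond these 10 genes the arrays read 18 other alcohol and aldehyde dehydrogenase genes, of which 4 were called higher in esophagus and 2 higher in stomach by their brightest probe. Over all 34298 gene names 14.9% were called, 7.15% higher in esophagus and 7.7% higher in stomach, and 26.6% of the 18489 names detected on every array of a tissue were called. The median difference of the 18 was -0.14. In esophagus the higher genes were *Aldh1l2*, the mitochondrial 10-formyltetrahydrofolate dehydrogenase (4.16 ± 0.84, adjusted p = 0.016), *Aldh1a3*, which makes retinoic acid (3.09 ± 0.50, adjusted p = 0.00543), *Aldh3b3*, and *Aldh4a1* of proline breakdown (1.19 ± 0.19, adjusted p = 0.00521). *Aldh1l2* read 12.23, 12.73 and 12.41 in esophagus and 6.998, 7.31 and 10.57 in stomach, so the stomach array of mouse 4 lay nearer to the esophagus arrays. The difference was 5.30 without that array, and the call was lost without stomach array 1 or 2 (differences 3.52 and 3.67, adjusted p = 0.0657 and 0.0758), without esophagus array 2 (4.03, adjusted p = 0.0589) and with trend and robust variances (adjusted p = 0.0731). *Aldh1a1*, another retinaldehyde dehydrogenase, read 11.83, 11.78 and 11.67 in stomach and 9.24, 9.35 and 9.19 in esophagus, a difference of -2.50 ± 0.14 (adjusted p = 1.67e-05). *Aldh7a1*, which acts in lysine breakdown, had -0.98 ± 0.25 (adjusted p = 0.0398) and was not called with the mouse as a block (adjusted p = 0.0589), which left 1 gene higher in stomach, nor without esophagus array 1 or 2 or any 1 of the stomach arrays (adjusted p = 0.062 to 0.146), nor with 75th percentile scaling (-0.81, adjusted p = 0.25) or an offset of 50 (adjusted p = 0.0661).

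**Figure D3:**
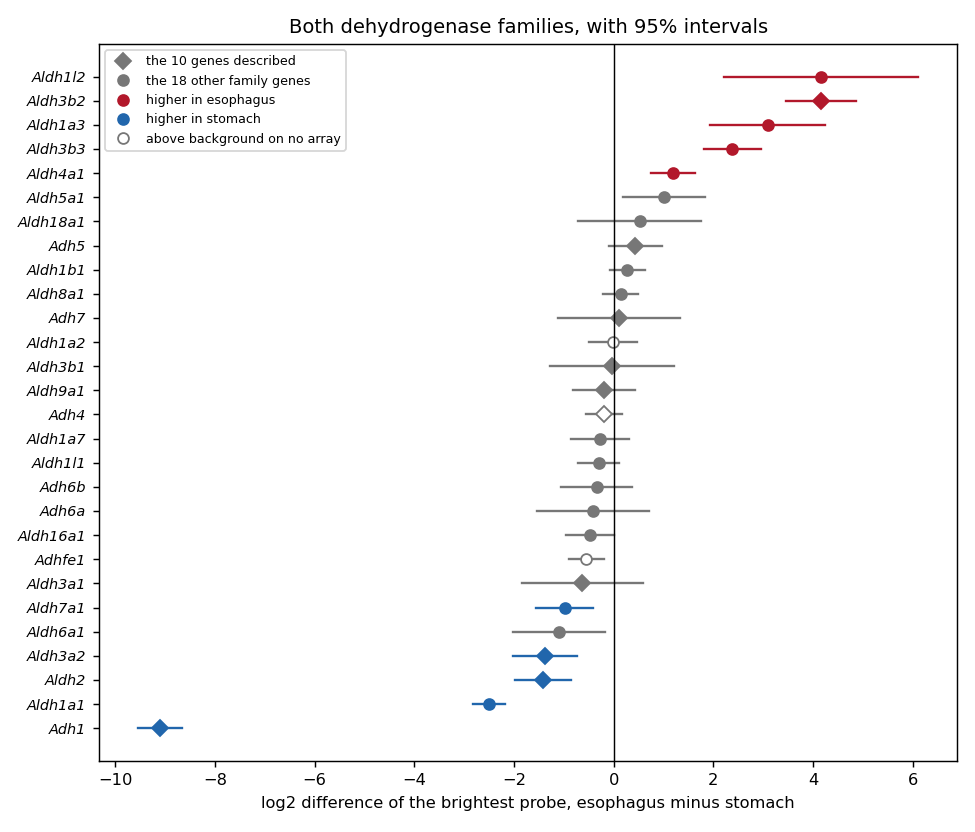
Log2 difference, esophagus minus stomach (horizontal axis), with 95% intervals for the brightest probe of the 10 genes described (diamonds) and the 18 other family genes (circles), colored where the adjusted p was under 0.05. *Adh1* at -9.11 stands apart from the other 27 genes, which lie between -2.50 and 4.16.

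Enzymes that oxidize ethanol beside ADH1, or use the acetate that ALDH2 leaves, were read by a list of 5 genes. Of these, 0 were called higher in esophagus and 1 higher in stomach by limma, with 3 of 5 under an unadjusted p of 0.05. The 1 of 5 called lies near the 14.9% of all gene names. *Acss1*, the mitochondrial enzyme that turns acetate into acetyl-CoA, read 13.71, 13.71 and 13.56 in stomach and 7.60, 6.998 and 6.94 in esophagus (-6.48 ± 0.20, adjusted p = 7.86e-07). Its cytosolic counterpart *Acss2* had -0.05 ± 0.35 (adjusted p = 0.958). *Cyp2e1*, the microsomal ethanol oxidase, was well above background on no array. The probes of *Cat*, catalase, disagreed in size: the brighter had 0.51 ± 0.21 (adjusted p = 0.193) and the dimmer 1.57 ± 0.22 (adjusted p = 0.00275).

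Around ALDH3A2 and ALDH9A1, 9 genes of fatty alcohol, fatty aldehyde and carnitine metabolism were read, of which 6 were called higher in stomach and 0 higher in esophagus, with 6 of 9 under an unadjusted p of 0.05 and a median difference of -0.87. Of all gene names 7.7% were called higher in stomach, and of those detected on every array of a tissue 26.6% were called in either direction. *Agmo*, which splits alkylglycerols into fatty aldehydes, had -3.32 ± 0.19 (adjusted p = 2.26e-05), and *Phyh*, which starts phytanic acid breakdown, was 4.01-fold higher in stomach (adjusted p = 0.000331). *Tmlhe*, the first enzyme of carnitine synthesis, had -2.99 ± 0.29 (adjusted p = 0.000375) on its brighter probe and 0.12 ± 0.26 (adjusted p = 0.847) on the other. The *Agmo* probe and the brighter *Tmlhe* probe were above background on 1 of 3 esophagus arrays, and their differences ran from -4.69 to -2.64 and from -4.81 to -2.22 over the alternatives. The remaining calls were *Far1*, a fatty acyl-CoA reductase (-1.06 ± 0.22, adjusted p = 0.0184, with -1.72 and -0.19 and adjusted p = 0.0276 and 0.546 on its dimmer probes), *Hacl1*, a peroxisomal lyase (-0.87 ± 0.19, adjusted p = 0.0244), and *Slc22a5*, the carnitine transporter (-0.82 ± 0.15, adjusted p = 0.00871). With 75th percentile scaling these last 3 were not called, which left 3 of 9. With trend and robust variances *Slc22a5* and *Hacl1* were not called (adjusted p = 0.0512 and 0.0511), which left 4 of 9. The slide as a block, which is the same fit as without esophagus array 4, also left *Hacl1* uncalled (adjusted p = 0.0653). Single arrays decided *Far1* and *Hacl1* as well. *Far1* was not called without stomach array 1 or esophagus array 2 (adjusted p = 0.0748 and 0.0622), and *Hacl1* was not called without stomach array 1 or 2 or esophagus array 2 or 4 (adjusted p = 0.0653 to 0.109).

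Other enzymes that reduce or oxidize carbonyl groups were read by 24 genes, 2 called higher in esophagus and 8 higher in stomach, against 7.15% and 7.7% of all gene names, with a median difference of -0.43. The aldo-keto reductases of the *Akr1c* group, which reduce steroids and other ketones, held 4 of the 5 largest measured differences, all 4 higher in stomach, while *Akr1c6*, *Akr1c18* and *Akr1c20* were above background on no array. *Akr1c19* read 12.82, 12.77 and 12.77 in stomach, was at background in all of the esophagus, and the bound on its stomach excess was at least 215-fold. *Akr1c12* was at least 89.4-fold and *Akr1c14* at least 26.6-fold higher in stomach, and *Akr1c13* had -6.91 ± 0.26 (adjusted p = 1.81e-06). These bounds too depend on the background correction, and with an offset of 50 the differences were -6.76 for *Akr1c19*, -5.50 for *Akr1c12* and -3.87 for *Akr1c14*, each smaller than its bound. Members of this group have near relatives. The longest identical run between their probes was 11 bases, but the probes were not compared with the transcripts of related genes. Whether a probe also reads the RNA of a relative was therefore not tested. The aldehyde oxidase gene *Aox3* was at least 6.37-fold higher in stomach, with 8.26, 8.68 and 6.13 there, had a measured difference of -2.96, or -3.74 without stomach array 4, and was not called without stomach array 1 or 2 or esophagus array 2 (adjusted p = 0.0791, 0.0617 and 0.0618). With a background offset of 50 its call was lost too, and its difference of -1.999 (adjusted p = 0.0781) was smaller than that bound. In the other direction *Cbr2*, a carbonyl reductase, read 15.16, 13.79 and 13.40 in esophagus and 5.85, 6.80 and 6.12 in stomach (7.86 ± 0.46, adjusted p = 2.19e-05, and 7.26 to 8.63 over the alternatives). With the mouse as a block 4 genes of this list were called higher in esophagus, *Esd* and *Akr1c18* in addition (adjusted p = 0.0302 and 0.049), of which *Akr1c18* was above background on no array.

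Retinol and retinaldehyde are substrates of several of these dehydrogenases. A list of 19 genes of retinoid transport, conversion and reception gave 4 calls in each direction and a median difference of 0.20. Of all gene names 7.15% were called higher in esophagus and 7.7% higher in stomach. The retinoic acid binding proteins *Crabp2* (5.43 ± 0.76, adjusted p = 0.00278) and *Crabp1* (at least 10.1-fold) and the retinol binding protein *Rbp2* (4.05 ± 0.41, adjusted p = 0.000523) were higher in esophagus. *Crabp2* read 14.33, 12.84 and 10.81 in esophagus, and its difference was 4.60 without the array of mouse 1 and 6.36 without that of mouse 4. In stomach the secreted retinol carrier *Rbp4* was at least 47.5-fold higher, the retinol dehydrogenase *Rdh10* had -2.61 ± 0.45 (adjusted p = 0.0075) and the retinol uptake receptor *Stra6* had -3.38 ± 0.84 (adjusted p = 0.0373). *Stra6* read 11.09, 7.24 and 8.70 in esophagus, its difference was -4.42 without esophagus array 1 and -2.50 without array 2, and its adjusted p ran from 0.000778 to 0.126 over the alternatives, with the call lost when any array but the esophagus array of mouse 1 was left out. With an offset of 50 the differences of *Crabp1* and *Rbp4* were 2.34 and -4.54, both smaller than their bounds. The esophagus array of mouse 4 lay alone on its slide, so the slide as a block is the same fit as leaving that array out. In that fit *Dhrs9* was called higher in esophagus (2.08, adjusted p = 0.000989, against 1.38 and 0.164 over all arrays). *Rarb* was then called higher in stomach (-1.20, adjusted p = 0.023, against -0.53 and 0.624), and *Stra6* was not called (adjusted p = 0.0889). That fit gave 5 calls higher in esophagus and 4 higher in stomach.

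The genes whose profile over the 6 arrays was nearest to that of a dehydrogenase were found by the Euclidean distance of log2 values after subtracting each probe's mean, among 18462 genes detected on every array of a tissue. For the first *Aldh3b2* probe they were *Ooep* (distance 0.27), *Id4* (0.57), *Trps1* (0.68), *Tenm4* (0.69) and *Pou3f1* (0.71), with differences of 4.16, 4.41, 4.08, 4.01 and 4.52. For *Adh1* they were *Lgals3bp* (0.51), *Tspan8* (0.54), *Tgm2* (0.61), *Eps8l3* (0.79) and *Slc39a4* (0.86), with measured differences of -9.26, -8.90, -8.74, -9.59 and -8.87. The *Adh1* probe and those of *Tgm2* and *Eps8l3* were well above background on no esophagus array and that of *Slc39a4* on 1 of 3, as those of *Ooep* and *Trps1* were on no stomach array and that of *Id4* on 1 of 3, so these distances rest partly on background readings and their order is loose.

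**Figure D4:**
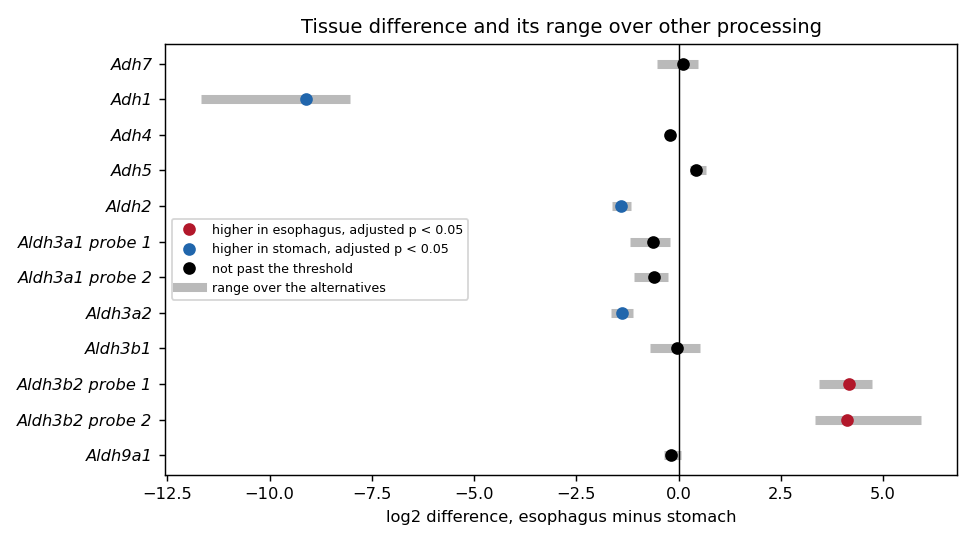
Log2 difference, esophagus minus stomach (horizontal axis), of each probe as reported (points, colored where called) and its lowest to highest value over the alternative settings and left-out arrays (gray bars, 13 settings, 12 for *Adh4*). The bars of *Adh1*, *Aldh2*, *Aldh3a2* and *Aldh3b2* stay on 1 side of 0, while those of *Adh7*, *Aldh3b1* and *Aldh9a1* cross it.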

How the data were processed

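Total RNA of 6 organoid samples was labeled with Cy3 and hybridized to single-color arrays. The deposited scanner files, read by the authors with Agilent Feature Extraction (version 11.5.1.1), hold spot intensity values not normalized between arrays, with flags for spots well above background. The authors' deposited log2 values were background corrected and quantile normalized by them, and normexp with an offset of 15 on median intensities gave them back with a median absolute difference of 0.00433. In R 4.3.3, spots of a probe were averaged, and limma 3.58.1 (lmFit and eBayes, no block, two-sided) compared 3 esophagus with 3 stomach arrays over 55681 probes. A probe above background on no array of a tissue gave a lower bound, the mean of the bright tissue against the mean, per dim array, of its lowest signal above background or the probe's own signal where higher. Genes named are the 10 members with every probe, up to 6 called genes of each other list with the largest difference of the brightest probe, tissue markers, and the 5 nearest profiles. Uncalled genes of those other lists are named too, as neighbors, as partners, or where a setting changed their call. Members and lists were chosen with earlier results of these data known. The labels number mice 1, 2 and 4 in both tissues, and deviations of same-mouse arrays correlated with r = 0.025, 0.012 and -0.008. The scripts were tested on simulated data. Replicates are separate mice by their numbers.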

Additional observations from a re-analysis of the deposited data

How the results depend on the processing

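Alternatives were scanner mean intensities with normexp offsets of 16 or 50, background-subtracted signals with 75th percentile scaling, only probes above background, trend and robust variances, the mouse as a replicate block, the slide as a block, each array left out, probes averaged per gene, and an unadjusted p under 0.05 with 1.5-fold. The last 2 gave the calls of the 10 genes unchanged in number, and 18.1% of all probes passed the unadjusted rule. *Adh1*, *Aldh2* and both *Aldh3b2* probes stayed called in all 13 refits, and *Aldh3a2* in 10. Differences ran from -11.67 to -8.03 for *Adh1*, -1.63 to -1.17 for *Aldh2*, -1.65 to -1.12 for *Aldh3a2* and 3.35 to 5.94 for *Aldh3b2*. These 13 refits are not 13 separate checks. The slide as a block is the same fit as leaving out the esophagus array of mouse 4, which lay alone on its slide. An offset of 16 is also close to the offset of 15 that gave back the deposited values. Uncalled genes that changed sign were *Adh7* with the slide as a block (-0.19) and over left-out arrays (-0.53 to 0.48), *Aldh3b1* over left-out arrays (-0.69 to 0.51), and *Aldh9a1* with 75th percentile scaling (0.0053) and over left-out arrays (-0.35 to 0.048). The 75th percentile scaling also moved the median of all probes to 0.19. Of the other alcohol and aldehyde dehydrogenases called higher in stomach, 1 was left with an offset of 50 and with the replicate block, and 1 to 2 over left-out arrays. *Adhfe1*, above background on no array, was called with an offset of 16 and with trend and robust variances, which made 3, and with 75th percentile scaling, where *Aldh7a1* lost its call. Carbonyl enzymes called higher in esophagus rose to 4 with trend and robust variances and with the replicate block, and ran from 2 to 4 over left-out arrays. Fatty aldehyde and carnitine genes called higher in stomach were 3 with 75th percentile scaling and 4 with trend and robust variances. The cause was not tested. The replicate block changed no call of the 10 genes. With 3 arrays per tissue, the smallest differences that could pass depend on these few arrays, and dim genes have only bounds.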
